A study of Mus musculus with 27 samples.

Results

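The Cyp3a family of the mouse liver was followed here in a study of experimental liver fibrosis. Its 8 members, Cyp3a11, Cyp3a13, Cyp3a16, Cyp3a25, Cyp3a41a, Cyp3a41b, Cyp3a44 and Cyp3a59, were found by their symbol, matched through the Ensembl identifier of each gene, and they are 8 of the 55414 genes of the count table. The rule itself used no measured value. RNA was sequenced from whole-liver homogenates of 27 young adult female Balb/c mice in 8 groups. Without injury, control livers came from 4 mice, and 3 mice each received 4MU (4-methylumbelliferone, an inhibitor of hyaluronan synthesis, by daily gavage for a fortnight), siLuc-LNP (an siRNA against luciferase in lipid nanoparticles, the non-targeting control, by tail vein) or siHAS2-LNP (an siRNA against the hyaluronan synthase gene Has2 in the same particles). These 13 mice were injected intraperitoneally with olive oil, and the control mice also received PBS by tail vein. The other 14 mice were injected with CCl4 (carbon tetrachloride, a hepatotoxin that causes fibrosis) intraperitoneally, either with no second agent on their labels (CCl4, 2 mice) or with the same agents, the groups CCl4 + siHAS2-LNP, CCl4 + siLuc-LNP and CCl4 + 4MU of 4 mice each.

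Cyp3a genes encode cytochrome P450 monooxygenases of the endoplasmic reticulum, which oxidise steroids, bile acids and a large share of drugs. They take electrons from NADPH through the P450 reductase Por, and in hepatocytes many of them are induced through the nuclear receptors PXR (Nr1i2) and CAR (Nr1i3). Cyp3a11 is the main drug-inducible member in the mouse. Cyp3a16 is known from fetal and neonatal liver, and Cyp3a41a, Cyp3a41b and Cyp3a44 are known as members that predominate in females, under the pattern of growth hormone secretion. Cyp3a13 is also known from the intestine, and Cyp3a25 is an abundant member of adult liver.

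The members lie on chromosome 5 (GRCm39), each with 13 exons. Their identifiers are ENSMUSG00000056035 for Cyp3a11, ENSMUSG00000029727 for Cyp3a13, ENSMUSG00000038656 for Cyp3a16, ENSMUSG00000029630 for Cyp3a25, ENSMUSG00000075551 for Cyp3a41a, ENSMUSG00000075552 for Cyp3a41b, ENSMUSG00000054417 for Cyp3a44 and ENSMUSG00000061292 for Cyp3a59. Cyp3a16, Cyp3a41b, Cyp3a41a, Cyp3a44, Cyp3a11 and Cyp3a25, all on the minus strand, and Cyp3a59 on the plus strand, stand in this order in a cluster of 677 kb (chr5:145373119-146050097). Cyp3a13 (chr5:137891193-137919882, minus strand) lies 7453 kb outside it. Within the cluster, the coding sequences of Cyp3a41a and Cyp3a41b differ at 2 of 1512 positions (99.9% identity), and those of Cyp3a25 and Cyp3a59 are 97.5% identical, while Cyp3a11 and Cyp3a44 share 94.9%. Reads that fit several places were not counted by the authors. Of the 85-base windows of the transcript, the shortest read length, 97.8% were found in no other Cyp3a transcript for Cyp3a11, 100% for Cyp3a13 and 91.4% to 99.0% for Cyp3a16, Cyp3a25, Cyp3a44 and Cyp3a59. For Cyp3a41a this held for 121 of 1976 windows (6.12%) and for Cyp3a41b for 201 of 1980 (10.2%). Few single reads can thus be told to come from 1 of these 2 genes, and their levels can be followed across mice but not set beside those of the other members. The reads came from Balb/c mice and the reference from C57BL/6J, and the effect of strain differences on the counts was not tested.

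The 250 bases before the RefSeq start of the gene are shown for 5 members, to compare the starts of neighbouring members. In GENCODE vM39 Cyp3a11 begins further upstream, so that 203 of its 250 bases lie inside the gene as annotated there, as do 4 of Cyp3a25 and 2 of Cyp3a44. The sequences were taken from RefSeq (table build GRCm38.p6), were found again at 1 place each in GRCm39, and are written 5′ to 3′ on the strand of the gene. Capitals mark AGGTCA or its reverse complement TGACCT, the half-site bound by nuclear receptors, TGTTTAC, a forkhead factor motif, and TATAAA. The letters of the motifs were chosen with these sequences in view.
Cyp3a11 (chr5:145816665-145816914): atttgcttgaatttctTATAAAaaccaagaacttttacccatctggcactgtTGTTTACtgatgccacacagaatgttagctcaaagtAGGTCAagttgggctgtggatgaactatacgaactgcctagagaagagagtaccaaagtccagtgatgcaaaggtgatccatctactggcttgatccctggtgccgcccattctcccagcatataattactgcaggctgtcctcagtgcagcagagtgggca
Cyp3a16 (chr5:145406534-145406783): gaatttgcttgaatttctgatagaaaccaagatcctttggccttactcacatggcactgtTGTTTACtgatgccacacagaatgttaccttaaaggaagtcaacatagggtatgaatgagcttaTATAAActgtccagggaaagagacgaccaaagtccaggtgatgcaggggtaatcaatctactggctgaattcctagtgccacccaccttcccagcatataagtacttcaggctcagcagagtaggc
Cyp3a41a (chr5:145656947-145657196): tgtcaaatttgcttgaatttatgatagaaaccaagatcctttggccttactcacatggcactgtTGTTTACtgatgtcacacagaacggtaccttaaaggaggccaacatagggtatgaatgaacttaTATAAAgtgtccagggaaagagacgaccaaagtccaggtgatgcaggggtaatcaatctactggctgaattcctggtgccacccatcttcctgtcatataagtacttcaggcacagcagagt
Cyp3a44 (chr5:145742685-145742934): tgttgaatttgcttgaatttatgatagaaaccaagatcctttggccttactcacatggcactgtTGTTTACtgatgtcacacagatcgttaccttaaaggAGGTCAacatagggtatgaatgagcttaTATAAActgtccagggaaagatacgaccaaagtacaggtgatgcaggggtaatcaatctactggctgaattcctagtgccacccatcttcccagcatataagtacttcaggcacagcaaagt
Cyp3a25 (chr5:145946429-145946678): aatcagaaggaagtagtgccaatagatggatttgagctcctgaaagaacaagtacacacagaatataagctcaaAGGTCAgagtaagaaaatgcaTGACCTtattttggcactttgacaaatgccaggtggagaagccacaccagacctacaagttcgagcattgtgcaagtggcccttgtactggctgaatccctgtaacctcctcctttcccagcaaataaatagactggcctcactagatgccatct

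These upstream stretches formed sets. Cyp3a41b, not printed, differed from Cyp3a41a at 1 of 250 positions. Cyp3a44 was 94.4% identical to Cyp3a41a and 92.9% to Cyp3a16, and Cyp3a16 and Cyp3a41a shared 90.9%. Cyp3a11 shared 71.7% to 76.2% with these 4. Cyp3a25 shared 94.8% with Cyp3a59 and 52.7% with Cyp3a11. TGTTTAC stood in 5 of the 8 upstream stretches (Cyp3a11, Cyp3a16, Cyp3a41a, Cyp3a41b and Cyp3a44), against 3.17% of 32851 promoters, both strands searched. TATAAA stood in the same 5, against 12.4%. The half-site AGGTCA stood in 4 (Cyp3a11, Cyp3a44, Cyp3a25 and Cyp3a59), against 14.02%, and in Cyp3a25 and Cyp3a59 it was found on both strands. The STAT5 motif TTCNNNGAA, which 7.02% of promoters hold, was not found in these 8 windows. Several of the stretches are near copies of one another, and the motif letters were chosen with these sequences in view. The shares of all promoters are thus a description and cannot test enrichment. No motif in the printed stretches overlapped another.

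Total counts per library ranged from 7044386 (CCl4 + siHAS2-LNP mouse 4) to 29425937. In every library hepatocyte markers were abundant, 6 of them summing to 87113 to 213840 CPM. CPM are counts per 1000000 counts of the library, after scaling by TMM factors. Has2, the target of the siRNA, had 0 counts in 25 of the 27 libraries and at most 2, so its knockdown could not be checked in these data. CCl4 + siLuc-LNP mouse 3 stood apart from its group: the chi-square of its counts against those of its 3 group mates was 319 to 416 per degree of freedom, and at most 120 in the 31 other pairs within groups. Differences of members that passed the threshold and include this library are given with and without it. Sums, correlations and values of genes outside the family are given with it only. The labels number the mice within each group, and these numbers did not pair mice across groups. All 8 members passed the filter of a mean of 10 counts per library, Cyp3a16, Cyp3a41a and Cyp3a41b through the mice without CCl4.

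Cyp3a11 and Cyp3a25 were the most abundant members in uninjured liver. In the 4 control livers the level per kilobase of transcript was 990 CPM for Cyp3a11, followed by 490 for Cyp3a25, 269 for Cyp3a44 and 135 for Cyp3a16. Cyp3a41a (31.6), Cyp3a13 (18.7), Cyp3a59 (17.4) and Cyp3a41b (14.6) stood lowest on this scale. When the control level was instead expressed per 1000 unique windows, Cyp3a41a reached 538 CPM and its near copy Cyp3a41b 150. On this scale Cyp3a25 was at 559 and Cyp3a44 at 307, so the place of the pair in the order depends on how the shared sequence is treated. In CPM, Cyp3a11 measured 2371, 2095, 2384 and 2799 in the 4 control mice, a mean of 2412 ± 290 (SD, n = 4). Together the 8 genes took 0.400% of all counts in control livers.

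**Figure D1:**
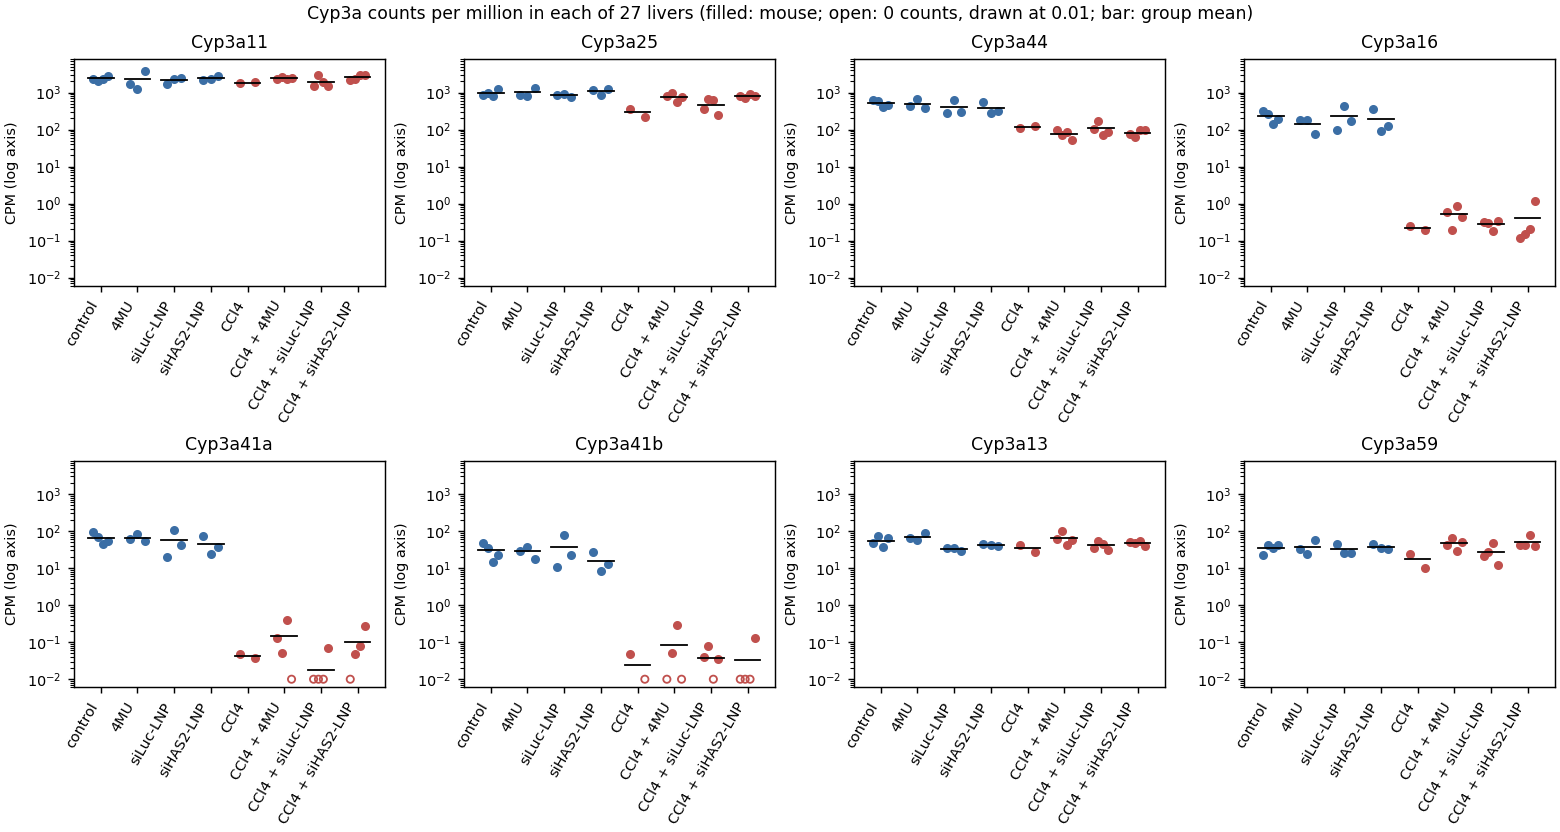
Level of each Cyp3a member (CPM, log axis) in each of the 27 livers by group; blue points are mice without CCl4, red points mice with CCl4, open points are 0 counts drawn at 0.01, and bars are group means. Cyp3a16, Cyp3a41a, Cyp3a41b and Cyp3a44 were lower in each of the 14 CCl4 livers than in any of the 13 others, and the other 4 members overlapped. The share of all genes separated in this way was not counted.

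Cyp3a16 was close to absent from every CCl4 liver. It measured 323, 270, 144 and 198 CPM in the 4 control mice and 0.243 and 0.188 CPM, 5 counts each, in the 2 CCl4 mice. Across groups, the 13 livers without CCl4 held 73.8 to 420 CPM (median 181) and the 14 with CCl4 held 0.117 to 1.20 CPM (median 0.276), without overlap. From the pooled counts, the level with CCl4 alone was 1067-fold lower than in control (95% Poisson interval 580 to 2226, counting error only), and it was 271-fold lower (208 to 361) with CCl4 + 4MU against 4MU, 747-fold (520 to 1115) with CCl4 + siLuc-LNP against siLuc-LNP, and 801-fold (518 to 1311) with CCl4 + siHAS2-LNP against siHAS2-LNP. In the quasi-likelihood model of edgeR, with p-values adjusted for all tested genes after Benjamini and Hochberg, the adjusted p for Cyp3a16 was 2.09e-08, 2.25e-09, 3.27e-10 and 1.1e-09 in these 4 comparisons. Cyp3a16 passed the filter on low counts only through the mice without CCl4. That entry favours a call of lower, so these p-values are a description.

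The nearly identical pair Cyp3a41a and Cyp3a41b fell as far. Cyp3a41a had 352 to 2154 counts in the livers without CCl4 and 0 to 11 in those with it, and Cyp3a41b had 177 to 1373 against 0 to 8. In the control mice Cyp3a41a measured 94.6, 67.6, 44.8 and 53.4 CPM, and in the CCl4 mice 0.0486 and 0.0376 CPM, which is 1 count each. Its pooled level was 1495-fold lower with CCl4 than in control (interval 414 to 12345), 451-fold with 4MU (273 to 806), 2677-fold with siLuc-LNP (741 to 22106) and 730-fold with siHAS2-LNP (313 to 2247). For Cyp3a41b the ratios were 1358-fold (244 to 53642), 320-fold (169 to 700), 866-fold (338 to 3179) and 1323-fold (237 to 52261) lower. Each of the 8 differences passed the threshold, with an edgeR adjusted p of 1.27e-06 or lower. In the siLuc-LNP arm both of these genes and Cyp3a16 also passed without CCl4 + siLuc-LNP mouse 3 (edgeR adjusted p = 2.15e-07 or lower). That of Cyp3a41b between CCl4 and control, which rests on 1 count in 2 libraries, missed it with limma-voom (adjusted p = 0.0604). Both genes passed the filter on low counts only through the mice without CCl4, which favours a call of lower. Their p-values are thus a description as well.

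Cyp3a44 fell less and stayed well measured. It was 629, 600, 411 and 474 CPM in control mice and 113 and 123 CPM in CCl4 mice. Over all groups it spanned 281 to 674 CPM (median 422, n = 13) without CCl4 and 53.0 to 172 CPM (median 91.1, n = 14) with CCl4, and the ranges did not overlap. The log2 fold change was -2.17 ± 0.40 (standard error) for CCl4 against control (edgeR adjusted p = 0.000175), -2.68 ± 0.32 for CCl4 + 4MU against 4MU (adjusted p = 1.54e-06), -1.89 ± 0.31 for CCl4 + siLuc-LNP against siLuc-LNP (adjusted p = 9.85e-05, or -1.71 with 0.000553 without CCl4 + siLuc-LNP mouse 3) and -2.20 ± 0.32 for CCl4 + siHAS2-LNP against siHAS2-LNP (adjusted p = 3.98e-05). In bulk liver, fewer cells that express a gene and less of its RNA per cell cannot be told apart.

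Cyp3a25, the second member by level, fell in some arms. It measured 880.1, 990, 829.7 and 1235 CPM in control mice against 365 and 218 CPM in CCl4 mice, which did not overlap. The log2 fold change was -1.75 ± 0.34 (edgeR adjusted p = 0.000283). In the siLuc-LNP arm the values were 859, 886 and 767 CPM without CCl4 and 351, 674, 617 and 243 CPM with it, a log2 fold change of -0.83 ± 0.27 (adjusted p = 0.0264). Without CCl4 + siLuc-LNP mouse 3 it was -0.97 (adjusted p = 0.0134). This call was lost without siLuc-LNP mouse 1 or 2 or without CCl4 + siLuc-LNP mouse 1 or 4 (adjusted p 0.0693 to 0.0886), and with only these 2 groups in the fit (adjusted p = 0.139). In the 4MU arm (-0.41 ± 0.27, adjusted p = 0.284) and the siHAS2-LNP arm (-0.43 ± 0.27, adjusted p = 0.322) the difference did not pass the threshold, with 95% intervals of -0.97 to 0.14 and -0.98 to 0.13.

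Cyp3a59, the closest relative of Cyp3a25, was at 22.1, 41.5, 34.5 and 41.3 CPM in control mice and at 24.7 and 10.3 CPM in CCl4 mice, and these overlapped. Its log2 fold change was -0.996 ± 0.45 (edgeR adjusted p = 0.0914), and it passed the threshold without CCl4 mouse 1 (-1.73, adjusted p = 0.0345). That fit holds 1 CCl4 mouse, whose spread is taken from the other groups. Cyp3a13 was at 47.6, 71.9, 36.2 and 65.7 CPM in control mice and at 42.6 and 27.7 CPM in CCl4 mice (-0.65 ± 0.30, adjusted p = 0.0894), and it passed without control mouse 3 (-0.80, adjusted p = 0.0388). Without the filter on low counts both passed (edgeR adjusted p = 0.00278 for Cyp3a59 and 0.0382 for Cyp3a13). In the other 3 arms neither gene passed the threshold.

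Cyp3a11, which took most of the family's counted reads in the group means, did not pass the threshold in any arm. It measured 1761 and 1909 CPM in the 2 CCl4 mice, below the 4 control values, with a log2 fold change of -0.39 ± 0.31 (edgeR adjusted p = 0.344, 95% interval -1.04 to 0.25). The difference was 0.10 ± 0.27 in the 4MU arm, -0.15 ± 0.27 in the siLuc-LNP arm and 0.10 ± 0.27 in the siHAS2-LNP arm (adjusted p 0.737 to 0.861). Scaling by raw library totals shifted the median of all genes by 0.41 in CCl4 against control and turned the value of Cyp3a11 to 0.02, which was -0.37 relative to that median.

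**Figure D2:**
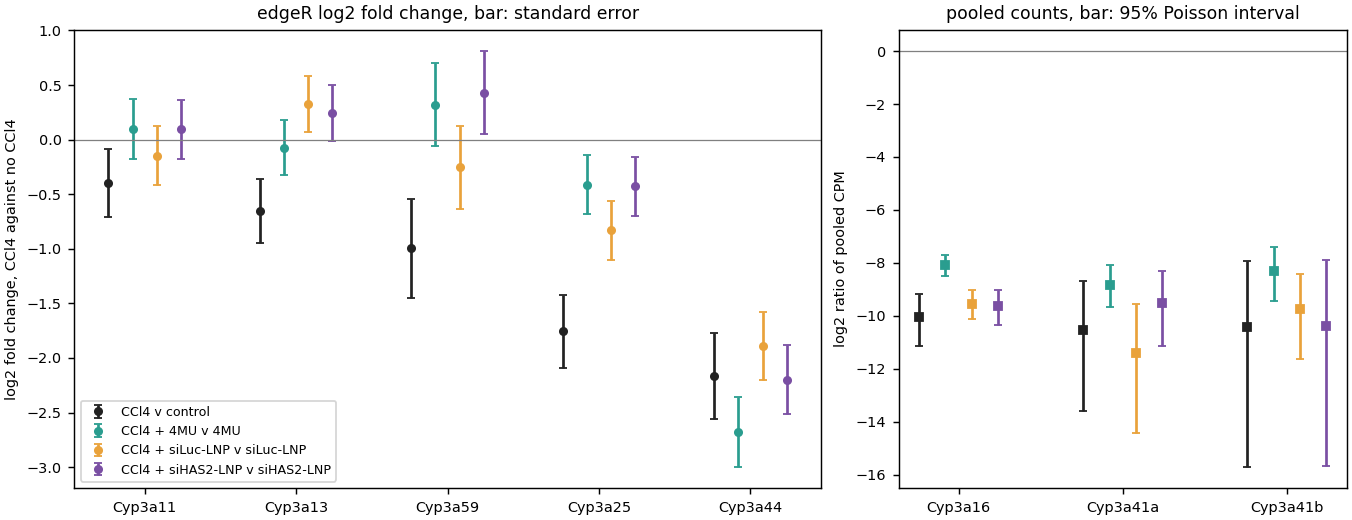
Difference between mice with and without CCl4 in each of the 4 arms. Left, edgeR log2 fold changes with standard errors for the 5 members not near 0 counts in CCl4 livers. Right, log2 ratio of pooled CPM with 95% Poisson intervals for the 3 members near 0 counts in CCl4 livers. Cyp3a44 lies between -2.68 and -1.89 and Cyp3a11 between -0.39 and 0.10, while the ratios on the right run from 271-fold to 2677-fold lower.

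Read against all genes, 5 of the 8 members were lower in CCl4 than in control, where 16.1% of 14114 tested genes were lower. Without the filter on low counts 7 of 8 were, where 4633 of 31177 genes were called in either direction. The counts were 4 of 8 for CCl4 + 4MU against 4MU (10.5% of all genes), 5 of 8 for CCl4 + siLuc-LNP against siLuc-LNP (11.2%) and 4 of 8 for CCl4 + siHAS2-LNP against siHAS2-LNP (5.09%). No member was higher. Cyp3a16, Cyp3a41a and Cyp3a41b, lower in all 4 arms, passed the filter on low counts through the mice without CCl4. That way of entry favours a call of lower, so these counts of members are a description. The median log2 fold change of the 8 was -1.96, -1.55, -1.36 and -1.31 in these arms, beside -0.02, 0.00, -0.03 and 0.03 over all tested genes. For the effect of CCl4 averaged over the 4 arms, 5 members were lower, where 25.6% of genes were. This average was -2.23 ± 0.17 for Cyp3a44 (edgeR adjusted p = 1.08e-10), -0.86 ± 0.14 for Cyp3a25 (adjusted p = 2.07e-05), -0.09 ± 0.14 for Cyp3a11 (adjusted p = 0.626), -0.13 ± 0.20 for Cyp3a59 (adjusted p = 0.616) and -0.04 ± 0.13 for Cyp3a13 (adjusted p = 0.822). Without CCl4 + siLuc-LNP mouse 3 it was -2.19 for Cyp3a44 and -0.90 for Cyp3a25, and 5 members passed. Raw totals shifted the median of all genes by 0.18 in this average and turned the values of Cyp3a11, Cyp3a59 and Cyp3a13 to 0.09, 0.02 and 0.12.

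The summed level of the 8 genes was 4343 ± 420 CPM in control (n = 4), 4133 ± 1483 in 4MU, 4216 ± 514 in siHAS2-LNP and 3797 ± 744 in siLuc-LNP mice (n = 3 each). It was 2297 ± 13.6 in CCl4 (n = 2), 3394 ± 328 in CCl4 + 4MU, 3577 ± 476 in CCl4 + siHAS2-LNP and 2611 ± 937 in CCl4 + siLuc-LNP mice (n = 4 each). The make-up of the sum differed as well. Cyp3a11 made up 52.4% to 57.9% of it in the group means without CCl4 and 72.1% to 79.9% with CCl4. Cyp3a16, Cyp3a41a, Cyp3a41b and Cyp3a44 together went from 14.8% to 20.1% down to 2.31% to 5.14%. Cyp3a41a and Cyp3a41b are undercounted here, since only 6.12% and 10.2% of their windows are unique. The sums and shares thus describe counted reads and not the family's RNA.

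**Figure D3:**
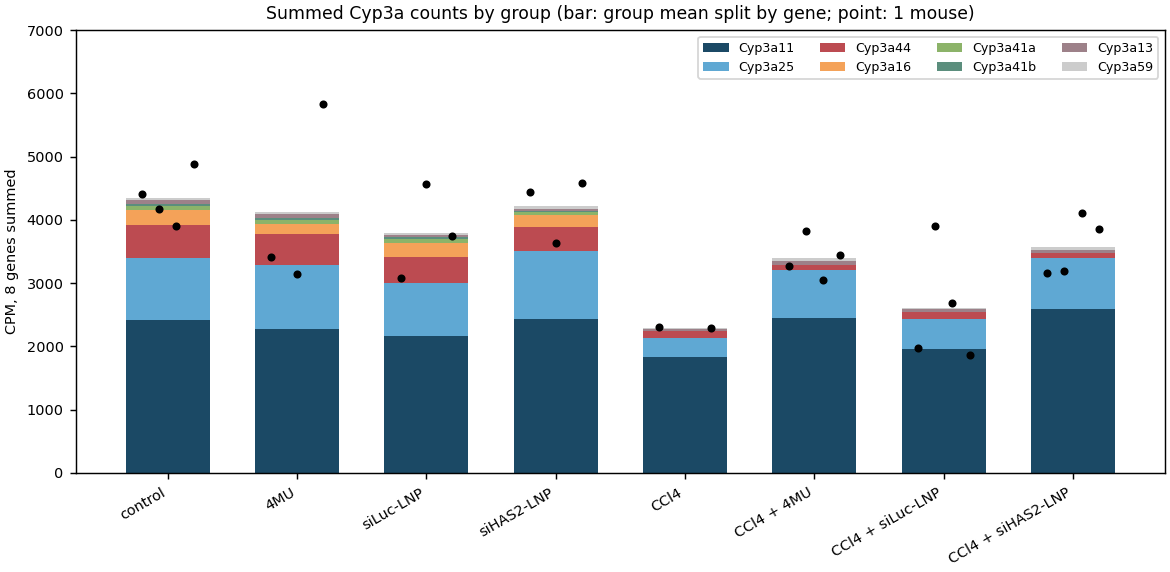
Summed level of the 8 Cyp3a genes (CPM) by group. Bars are group means split by gene and points are single mice. Cyp3a41a and Cyp3a41b enter with few unique reads, so the sums describe counted reads only. The 2 CCl4 mice sit at 2307 and 2287, the control mice between 3899 and 4888, and the segments of Cyp3a44 and Cyp3a16 are thin or not visible in the CCl4 groups.

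Other Cyp3a genes of the annotation gave few counts. The transcribed pseudogene Cyp3a63-ps, inside the cluster, had 139 to 203 counts in control and 1 and 0 in CCl4 livers, a pooled ratio of 376-fold lower (interval 67.5 to 14848, edgeR adjusted p = 1.37e-05). Cyp3a57 had a mean of 7 counts per library, under the filter, and Cyp3a61-ps1 had 2 counts in all 27. Of 29 other protein-coding genes within 500 kb of the cluster, 15 were tested, and for the average CCl4 effect 2 were higher and 6 lower with a median of -0.15. Of all tested genes 26.3% were higher and 25.6% lower in this average. Cpsf4, a subunit of the complex that cleaves and polyadenylates mRNA, changed by -0.58 (adjusted p = 1.94e-06) and the zinc finger gene Zfp655 by -0.45 (adjusted p = 0.000212).

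Genes that act on the family were set beside it for the same average CCl4 effect. These lists were chosen with results of these data known, and their counts are to be read against the 26.3% of all genes that were higher and the 25.6% that were lower. Of 11 tested receptors and hepatocyte factors 5 were lower and 0 higher, with a median of -0.13. Nr1i3, which encodes CAR, was lower (-1.30 ± 0.18, edgeR adjusted p = 1.45e-06), as were the glucocorticoid receptor gene Nr3c1 (-0.37 ± 0.08, adjusted p = 0.00029) and the factor Cebpa (-0.65 ± 0.14, adjusted p = 0.000372), whereas Nr1i2, which encodes PXR, was at -0.13 ± 0.11 (adjusted p = 0.366). Of 7 genes of electron supply and haem metabolism 2 were lower, the membrane haem protein Pgrmc1 (-0.74, adjusted p = 1.29e-07) and cytochrome b5, Cyb5a (-0.67, adjusted p = 4.85e-05), and Por was at 0.32 ± 0.23 (adjusted p = 0.242). Of 15 other PXR and CAR targets 5 were higher and 7 lower, among them Cyp2a5 at -5.41 (adjusted p = 3.25e-14), Cyp2c55 at 2.31 (adjusted p = 1.3e-07), Akr1b7 at 1.64 (adjusted p = 1.21e-06) and the canalicular transporter Abcc2 at 0.71 (adjusted p = 2.76e-06).

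Of 14 tested female-predominant liver genes outside the family 13 were lower and 0 higher, with a median of -2.64. Cyp2c69, which belongs to a family of close copies, changed by -6.19 (edgeR adjusted p = 1.31e-12), Cyp2c40 by -3.89 (adjusted p = 3.73e-12) and the P450 gene Cyp2b13 by -3.16 (adjusted p = 2.08e-12). Of 8 male-predominant genes 1 was higher, Selenbp2 (1.60, adjusted p = 2.87e-07), and 4 lower, with a median of -0.62, among them the oxysterol hydroxylase Cyp7b1 (-2.67, adjusted p = 1.29e-13). Of 7 genes of growth hormone signalling 5 were lower and 0 higher (median -0.64), including the receptor Ghr (-1.24, adjusted p = 2.84e-08), its target Igf1 (-0.84, adjusted p = 2.81e-07) and the feedback inhibitor Socs2 (-1.53, adjusted p = 4.28e-06). Of 4 fetal liver genes all were higher, with Gpc3 at 3.92 (adjusted p = 1.5e-14) and the fetal serum protein Afp at 4.70 (adjusted p = 4.64e-14), while Cyp3a16, itself known from fetal and neonatal liver, was lower. Of 8 acute phase genes and cytokines 2 were higher and 3 lower (median -0.28).

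Markers of liver zones and cell types differed in direction. Of 11 genes of pericentral hepatocytes, the zone around the central vein, 10 were lower and 0 higher for the average CCl4 effect (median -1.24), with glutamine synthetase, Glul, at -3.96 (edgeR adjusted p = 3.89e-17), Oat at -4.04 (adjusted p = 3.89e-17) and Cyp2e1, the P450 that activates CCl4, at -2.83 (adjusted p = 2.99e-11). Their summed level was 7094 to 11533 CPM in mice without CCl4 and 686 to 3376 CPM with it. Of 11 periportal genes 3 were higher and 2 lower (median -0.01), and their sum was 7895 to 13813 CPM without and 7561 to 17936 CPM with CCl4. Sums without and with CCl4 were 28.9 to 103 and 131 to 736 CPM for 5 stellate cell and myofibroblast markers, of which 4 rose, 29.4 to 77.0 and 108 to 691 CPM for 5 cholangiocyte markers, of which 5 rose, and 1.33 to 25.2 and 37.4 to 508 CPM for 4 markers of dividing cells, of which 4 rose. They were 138390 to 213840 and 87113 to 198720 CPM for the hepatocyte markers (1 of 6 higher, 2 lower), 150 to 458 and 89.1 to 380 CPM for 5 Kupffer cell markers (4 lower), 43.0 to 102 and 44.4 to 98.2 CPM for 4 endothelial markers (2 higher, 1 lower), and 42.4 to 176 and 88.5 to 455 CPM for 4 leukocyte markers (2 higher, 1 lower). No listed cell type marker was at 0 throughout a group. The part of these marker changes in the Cyp3a differences was not tested.

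In the mice given CCl4, treatment went with higher levels of Cyp3a25 and its relative Cyp3a59. Cyp3a25 was at 365 and 218 CPM with CCl4 alone, at 787, 951, 539 and 770.2 CPM with CCl4 + 4MU, and at 794, 715, 897 and 794 CPM with CCl4 + siHAS2-LNP. Each treated mouse was above both CCl4 mice. The log2 fold change was 1.39 ± 0.33 for 4MU (edgeR adjusted p = 0.00617) and 1.46 ± 0.33 for siHAS2-LNP (adjusted p = 0.00589). The control particles gave 351, 674, 617 and 243 CPM and a log2 fold change of 0.69 ± 0.32 (adjusted p = 0.325), with values on both sides of the higher CCl4 mouse. Without CCl4 + siLuc-LNP mouse 4, the lowest of the 4, this difference passed the threshold (0.90, adjusted p = 0.0470), and without mouse 3 it was 0.53 (adjusted p = 0.597). These comparisons share the 2 CCl4 mice. Without CCl4 mouse 2, the lower of them, the values were 1.03 (adjusted p = 0.176) and 1.10 (adjusted p = 0.182). With 1 CCl4 mouse left, these p-values assume that it varies like the mice of the other groups.

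Cyp3a59 was at 24.7 and 10.3 CPM with CCl4, at 42.6, 64.0, 29.1 and 51.1 CPM with CCl4 + 4MU (1.42 ± 0.46, edgeR adjusted p = 0.0345) and at 41.6, 43.5, 79.9 and 39.1 CPM with CCl4 + siHAS2-LNP (1.55 ± 0.46, adjusted p = 0.0277). Again each treated mouse lay above both CCl4 mice. The call for 4MU was lost without CCl4 mouse 2 (adjusted p = 0.405) and without CCl4 + 4MU mouse 2 or 4 (adjusted p = 0.0809 and 0.0649), and in a fit of these 2 groups alone (adjusted p = 0.0506). That for siHAS2-LNP was lost without CCl4 mouse 2 (adjusted p = 0.388) or CCl4 + siHAS2-LNP mouse 3 (adjusted p = 0.0846).

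Cyp3a13 passed the threshold for 4MU only, at 62.6, 103, 43.5 and 58.1 CPM against 42.6 and 27.7 CPM (0.93 ± 0.30, edgeR adjusted p = 0.0336). The call was lost without CCl4 mouse 2 (adjusted p = 0.385) or CCl4 + 4MU mouse 2 (adjusted p = 0.122), in a fit of these 2 groups alone (adjusted p = 0.102), with limma-voom (adjusted p = 0.0682) and with raw totals (adjusted p = 0.0979), which shifted the median of all genes by -0.33. For siHAS2-LNP its value was 0.48 ± 0.29 (adjusted p = 0.283). Cyp3a11 was at 0.41 ± 0.31 with 4MU (adjusted p = 0.367) and 0.50 ± 0.31 with siHAS2-LNP (adjusted p = 0.296).

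The members that fell most did not pass the threshold under treatment. Cyp3a44 was at 95.6, 69.3, 87.6 and 53.0 CPM with CCl4 + 4MU and at 76.1, 62.1, 94.6 and 98.1 CPM with CCl4 + siHAS2-LNP, all below the 113 and 123 CPM of the CCl4 mice. The log2 fold change was -0.63 ± 0.35 (edgeR adjusted p = 0.209, 95% interval -1.34 to 0.09) and -0.51 ± 0.35 (adjusted p = 0.340, 95% interval -1.23 to 0.21). Cyp3a16 had 5 and 5 counts with CCl4, 14, 4, 24 and 12 with CCl4 + 4MU, 8, 8, 3 and 10 with CCl4 + siLuc-LNP, and 3, 3, 5 and 9 with CCl4 + siHAS2-LNP. Cyp3a41a and Cyp3a41b had at most 11 and 8 counts in any of these livers, so small differences between treatments near 0 could not be measured. All of these livers stayed below 352 counts of Cyp3a41a and 177 of Cyp3a41b, the lowest values without CCl4.

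In counts, 3 of 8 members were higher in CCl4 + 4MU than in CCl4, where 8.28% of genes were higher, and 2 of 8 in CCl4 + siHAS2-LNP, where 7.11% were, and 0 were lower. Between CCl4 + siLuc-LNP and CCl4 0 members passed the adjusted threshold by edgeR, DESeq2 or limma-voom (0.248% of genes by edgeR, in either direction). Each tool had 1 at an unadjusted p under 0.05. Between CCl4 + siHAS2-LNP and CCl4 + siLuc-LNP 0 members passed the adjusted threshold by any of these tools (1.09% of genes by edgeR). Each tool had 2 at an unadjusted p under 0.05. The 2 by edgeR were Cyp3a25 at 0.76 ± 0.25 (edgeR adjusted p = 0.124) and Cyp3a59 at 0.92 ± 0.35 (adjusted p = 0.179), and Cyp3a25 passed with raw totals (0.89, adjusted p = 0.0319). Without the filter on low counts both passed (adjusted p = 0.0365 and 0.00361). Without CCl4 + siLuc-LNP mouse 3 they were at 0.89 (adjusted p = 0.0742) and 1.29 (adjusted p = 0.0565). Between CCl4 + 4MU and CCl4 + siHAS2-LNP 0 members passed the adjusted threshold by any of these tools (1.22% of genes by edgeR). At an unadjusted p under 0.05 there were 0 by edgeR, 0 by DESeq2 and 1 by limma-voom. For Cyp3a25 that difference was -0.07 ± 0.25 (adjusted p = 0.904, 95% interval -0.59 to 0.45).

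**Figure D4:**
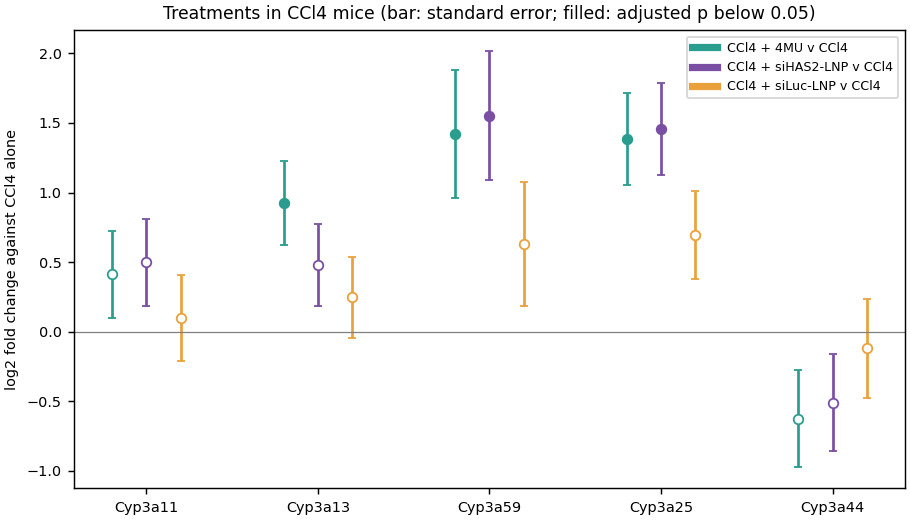
Log2 fold change against CCl4 alone of the 5 Cyp3a members not near 0 counts in CCl4 livers, for CCl4 + 4MU, CCl4 + siHAS2-LNP and CCl4 + siLuc-LNP. Bars are standard errors and filled points have an edgeR adjusted p below 0.05. Cyp3a25 and Cyp3a59 are filled for 4MU and siHAS2-LNP, Cyp3a13 for 4MU, and Cyp3a44 lies below 0 in all 3. For CCl4 + siLuc-LNP the value of Cyp3a44 is -0.12, and it is 0.036 without CCl4 + siLuc-LNP mouse 3. The 3 comparisons share the 2 CCl4 mice.

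Related genes were described for 4MU and siHAS2-LNP against CCl4 alone. Their counts of higher genes are to be read against 8.28% of all tested genes higher with 4MU and 7.11% with siHAS2-LNP. Of the 11 receptors and factors 5 were higher with 4MU and 3 with siHAS2-LNP, and 0 were lower. Nr1i3 was at 10.2 ± 2.98 CPM with CCl4, 37.0 ± 12.8 with CCl4 + 4MU (1.86 ± 0.42, edgeR adjusted p = 0.00459) and 28.6 ± 8.48 with CCl4 + siHAS2-LNP (1.504 ± 0.41, adjusted p = 0.0181). Nr1i2 was at 48.9 ± 15.6 CPM with CCl4 and 99.5 ± 16.8 with CCl4 + 4MU (1.02 ± 0.26, adjusted p = 0.00924), and with siHAS2-LNP the difference was 0.61 ± 0.25 (adjusted p = 0.108). Por was at 1.14 ± 0.53 (adjusted p = 0.127) and 0.40 ± 0.51 (adjusted p = 0.639). Of 15 PXR and CAR targets 4 were higher with 4MU and 0 with siHAS2-LNP, of 14 female-predominant genes 4 and 3 were, and of 11 pericentral genes 7 and 6, with 1 lower under siHAS2-LNP. Cyp2e1 among them changed by 2.33 ± 0.45 (adjusted p = 0.00168) and 2.07 ± 0.44 (adjusted p = 0.0042). The hepatocyte markers summed to 87113 and 141130 CPM in the 2 CCl4 mice and to 165470 to 198720 with CCl4 + 4MU and 121710 to 180260 with CCl4 + siHAS2-LNP, and 3 of 6 were higher with 4MU and 0 with siHAS2-LNP. Of 11 periportal genes 4 were higher and 1 lower with 4MU, and 1 was higher with siHAS2-LNP. Of 4 markers of dividing cells 4 were lower with 4MU and 2 with siHAS2-LNP, where 10% and 7.33% of all genes were lower, and they summed to 244 to 508 CPM with CCl4, 37.4 to 167 with CCl4 + 4MU and 122 to 144 with CCl4 + siHAS2-LNP. Of 5 Kupffer cell markers 4 were lower with siHAS2-LNP (median -1.72, sum 89.1 to 123 CPM against 242 to 268 CPM with CCl4) and 0 with 4MU. Of 5 stellate cell and myofibroblast markers 3 were lower with siHAS2-LNP and 0 with 4MU, and their sum was 392 to 635 CPM with CCl4, 131 to 397 with CCl4 + 4MU and 156 to 254 with CCl4 + siHAS2-LNP. The part of these marker changes in the Cyp3a25 difference was not tested.

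Without CCl4 the agents left no member past the threshold. Against control, 4MU gave 0 of 8 members (0.00709% of genes), with 0 at an unadjusted p under 0.05 by edgeR, DESeq2 or limma-voom. For siLuc-LNP 0 passed the adjusted threshold by any of these tools (0.213% of genes by edgeR). Each tool had 1 at an unadjusted p under 0.05. The member by edgeR was Cyp3a13, at 35.3, 36.0 and 28.3 CPM (-0.74 ± 0.26, edgeR adjusted p = 0.447). siHAS2-LNP against siLuc-LNP gave 0 past the adjusted threshold by any of these tools (0.0425% of genes by edgeR). At an unadjusted p under 0.05 there was 1 by edgeR, 0 by DESeq2 and 1 by limma-voom. The member by edgeR was Cyp3a41b, at 26.96, 8.34 and 12.7 CPM against 10.9, 78.1 and 22.0 CPM (-1.20 ± 0.53, edgeR adjusted p = 0.499), where a single siLuc-LNP mouse was high. Whether the CCl4 effect depended on the agent was tested as an interaction. For 4MU 0 members passed by edgeR (5.67% of genes), and each tool had 2 at an unadjusted p under 0.05. DESeq2 and limma-voom each called 1 member, where they called 1481 and 1121 of all 14114 tested genes. The member they called was Cyp3a25, at 1.34 ± 0.42 (edgeR adjusted p = 0.0560, DESeq2 0.0203, limma-voom 0.0248), and in edgeR it passed without CCl4 mouse 1 (adjusted p = 0.0327, with 1 CCl4 mouse left) or CCl4 + 4MU mouse 3 (adjusted p = 0.0373). For siHAS2-LNP, set against siLuc-LNP, 0 members passed (0.0354% of genes), with 0 at an unadjusted p under 0.05 and 0 by DESeq2 or limma-voom.

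Across groups, the order of the means had 1 clear step in 4 members and none in the others. The share of all tested genes with such a step was not counted. For Cyp3a16, Cyp3a41a, Cyp3a41b and Cyp3a44 the 4 groups without CCl4 stood above the 4 with it, and only the step between these blocks separated neighbouring groups whose mice did not overlap. For Cyp3a11, Cyp3a13, Cyp3a25 and Cyp3a59, neighbours in the order overlapped throughout. Cyp3a11 ran from 2594 ± 394 CPM in CCl4 + siHAS2-LNP to 1835 ± 104 in CCl4 mice, and its 4MU group spread most, with 1751, 1272 and 3822 CPM.

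Within the uninjured livers, Cyp3a16, Cyp3a41a, Cyp3a41b and Cyp3a44 varied together from mouse to mouse. In the 13 livers without CCl4, from 4 groups, Pearson's r of log2(CPM + 0.5) was 0.93 between Cyp3a41a and Cyp3a41b, 0.90 between Cyp3a41a and Cyp3a44, 0.87 between Cyp3a41b and Cyp3a44, and 0.78 to 0.84 between Cyp3a16 and these 3. These livers spanned 5.69-fold from lowest to highest for Cyp3a16, 5.24-fold for Cyp3a41a, 9.37-fold for Cyp3a41b and 2.399-fold for Cyp3a44. The other members spanned 1.76-fold (Cyp3a25), 2.55-fold (Cyp3a59), 3.005-fold (Cyp3a11) and 3.19-fold (Cyp3a13). Cyp3a25 was at 0.67 with both Cyp3a11 and Cyp3a59. Between the sets, r lay between -0.52 (Cyp3a41b and Cyp3a59) and 0.36 (Cyp3a13 and Cyp3a44). In the 14 CCl4 livers Cyp3a25 and Cyp3a59 reached 0.94, Cyp3a13 was at 0.82 with Cyp3a25 and 0.80 with Cyp3a59, and Cyp3a11 was at 0.80 with Cyp3a25, while Cyp3a44 was at -0.37 with Cyp3a25. Libraries share a scaling, and close copies may exchange reads, so these correlations are descriptions.

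**Figure D5:**
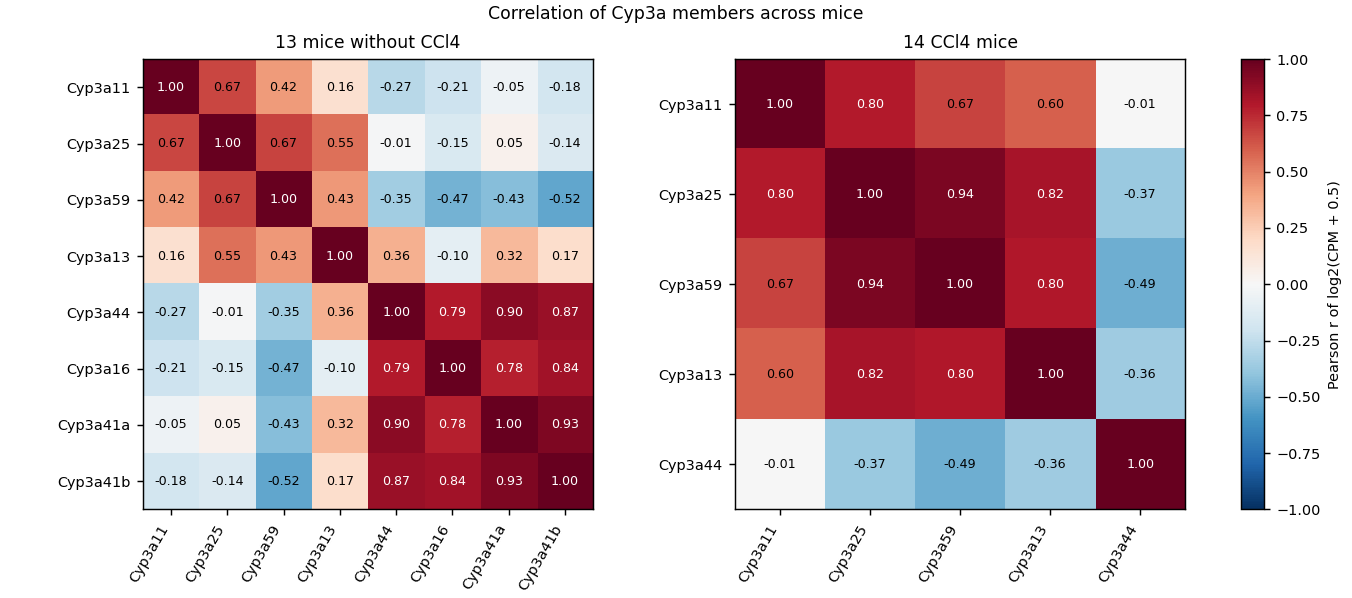
Pearson's r of log2(CPM + 0.5) between Cyp3a members across the 13 mice without CCl4 (left) and across the 14 CCl4 mice (right). The right panel holds only the 5 members not near 0 counts in CCl4 livers. Colour runs from -1 (blue) to 1 (red). Cyp3a44, Cyp3a16, Cyp3a41a and Cyp3a41b form a block of 0.78 to 0.93 on the left, and Cyp3a11, Cyp3a25, Cyp3a59 and Cyp3a13 a block of 0.60 to 0.94 on the right.

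The genes outside the family with the most similar pattern over all 27 livers were, for Cyp3a16, Slc1a2 (r = 0.99), Glul (0.98), Oat (0.98), Cyp2a5 (0.97) and Lhpp (0.97). For Cyp3a41a they were Slc1a2 (0.99), Glul (0.98), Oat (0.98), Cyp2a5 (0.97) and Cyp7b1 (0.96). These livers fall into 2 clusters, with and without CCl4, and the likeness was a likeness between the clusters. Within the 13 livers without CCl4, r with Cyp3a16 was 0.19 for Slc1a2, 0.22 for Glul, 0.41 for Oat, -0.16 for Cyp2a5 and 0.40 for Lhpp. For Cyp3a25 the genes were Gstk1 (0.94), Pbld2 (0.93), Pbld1 (0.92), Phyh (0.92) and Glt1d1 (0.92), and here r stayed at 0.93 to 0.97 within the 14 CCl4 livers and at 0.30 to 0.58 within the 13 others. For Cyp3a11 they were Hfe (0.69), Cyp2b10 (0.67), Gch1 (0.66), Zfp746 (0.64) and Irf2bp2 (0.63), with r between 0.50 and 0.81 within both sets of mice. For Cyp3a13 they were Slc35e3 (0.81), Itih3 (0.80), Mms19 (0.76), Nnmt (0.75) and Tmem38b (0.75), with 0.71 to 0.90 within both sets.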

How the data were processed

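Per the labels, polyadenylated RNA of whole-liver homogenates was made into strand-specific libraries and sequenced in pairs. The authors trimmed reads with Trimmomatic 0.39, aligned them to GRCm39 with HISAT2 (version not given in the sources used here) under Ensembl release 105, and counted reads per gene with featureCounts, leaving out reads that fit several places. The strand setting is not given in the sources used here. The deposited values are these raw counts of 55414 genes in 27 livers, 7044386 to 29425937 per library. Intervals on counts cover counting error only.

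Gene names came from GENCODE vM39, which matched 54749 of the identifiers. The main test was edgeR 4.0.16 (R 4.3.3) with a quasi-likelihood model of all 8 groups, TMM scaling, for the 14114 genes that averaged 10 or more counts in a library. P-values were adjusted by the Benjamini-Hochberg method over all tested genes, with a threshold of 0.05, and errors of log2 fold changes are standard errors. For members near 0 counts in CCl4 livers, the ratio of pooled CPM with an exact Poisson interval was given in place of the fitted fold change. The scripts were tested on simulated data. Alternatives were DESeq2 1.42.0, limma-voom (limma 3.58.1), other scalings and filters, the compared groups alone, a replicate block, the sum of Cyp3a41a and Cyp3a41b, and leaving out each mouse. Scaling by raw totals was added after seeing the data.

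The labels give separate mice per group but no cages or litters. No mice were counted as duplicates, since counts of mice of the same group differed by a chi-square per degree of freedom of at least 15.3 over 34 pairs. Where leaving out a mouse leaves a group of 1, its spread is assumed to be that of the other groups. The members and gene lists were chosen with earlier results of these data known. All members are named. From each list at most 4 genes were named, those with the lowest adjusted p, besides Nr1i2, Nr1i3 and Por, and a fitted fold change of a listed gene near 0 counts was left out. The 5 genes most like a member were those with the highest Pearson's r of log2(CPM + 0.5) over all libraries.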

Additional observations from a re-analysis of the deposited data

Results flagged for a closer look

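For the 8 members and the family total in the 4 groups of 4 mice (36 sets of values), a mouse that stood far from the other 3 was found in 5 (Dixon's test at 95%). Chance gives about 1 in 20, but this rate does not hold for 2 of the 5, in which the other 3 mice were at 0 and any count stands apart. Cyp3a59 was at 79.9 CPM in CCl4 + siHAS2-LNP mouse 3, and the others were at 39.1 to 43.5 CPM. The difference of this gene from CCl4 alone was below the threshold without that mouse (edgeR adjusted p = 0.0846). The other 4 rest on few counts. Cyp3a16 was at 1.20 CPM (9 counts) in CCl4 + siHAS2-LNP mouse 4, the library with the fewest counts, beside 0.117 to 0.2004 CPM in the others, and Cyp3a41b was at 0.133 CPM (1 count) in the same mouse and at 0 in the others. Cyp3a41b was at 0.295 CPM (8 counts) in CCl4 + 4MU mouse 3, beside 0 to 0.0498 CPM. That liver also held 11 counts of Cyp3a41a and 24 of Cyp3a16, more than any other CCl4 liver. Cyp3a41a was at 0.0692 CPM (2 counts) in CCl4 + siLuc-LNP mouse 4 and at 0 in the others. The sources of these differences were not tested.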

How the results depend on the processing

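Of 28 pairs of member and comparison past the threshold, 528 values under the alternatives gave 509 past it and 19 short of it, and 0 changed sign. The calls of Cyp3a16, Cyp3a41a and Cyp3a44 for CCl4 were not among the 19. Counts of members called that changed by over 1.5 times, or from or to 0, were these. Without the low-count filter, siHAS2-LNP against siLuc-LNP gave 1 (Cyp3a41b), CCl4 + siHAS2-LNP against CCl4 + siLuc-LNP 2 and the 4MU interaction 3 (Cyp3a16, Cyp3a25 and Cyp3a59), each from 0. Of all 31177 genes in that fit, 158, 656 and 1386 were called in these comparisons. Raw totals gave 1 for CCl4 + siHAS2-LNP against CCl4 + siLuc-LNP. The 4MU interaction gave 1 with DESeq2, limma-voom or only the compared groups, and CCl4 + 4MU against CCl4 gave 1 with only those groups. Over all tested genes, the interaction gave 1481, 1121 and 1297 in these settings. Smaller changes were from 5 to 7 (no filter), 4 (limma-voom) or 6 (without control mouse 3 or CCl4 mouse 1) for CCl4 against control, from 5 to 4 for the siLuc-LNP arm (Cyp3a25 lost with only the compared groups or without 1 of 4 mice) and from 3 to 2 for CCl4 + 4MU against CCl4 with limma-voom or raw totals (Cyp3a13 lost) or without CCl4 + 4MU mouse 4 (Cyp3a59 lost). Summing Cyp3a41a and Cyp3a41b lowered counts in the arms by the merged gene. Leaving out 1 mouse gave 0 to 3 for CCl4 + 4MU against CCl4 (0 without CCl4 mouse 2, 1 without CCl4 + 4MU mouse 2), 0 to 2 for CCl4 + siHAS2-LNP (0 without CCl4 mouse 2, 1 without CCl4 + siHAS2-LNP mouse 3), 0 to 1 for CCl4 + siLuc-LNP and 0 to 1 for the 4MU interaction.

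Raw totals turned Cyp3a11 to 0.0232 in CCl4 against control and Cyp3a11, Cyp3a13 and Cyp3a59 to 0.0911, 0.123 and 0.0184 in the average CCl4 effect; relative to the shifted median of all genes these were -0.37, -0.07, -0.04 and -0.14. That median shifted by 0.12 in the siLuc-LNP arm, 0.19 in the siHAS2-LNP arm, and -0.24 and -0.18 for CCl4 + siLuc-LNP and CCl4 + siHAS2-LNP against CCl4. Leaving out 1 mouse, the average ran from -0.16 to 0.0612 for Cyp3a11, from -0.11 to 0.0336 for Cyp3a13 and from -0.30 to 0.002 for Cyp3a59. In the 4MU arm it ran from -0.19 to 0.69 for Cyp3a11 and from -0.38 to 0.14 for Cyp3a13, and in the siLuc-LNP arm from -0.63 to 0.0486 for Cyp3a59. None of these passed the threshold. The family total of CCl4 mice was 2813 CPM with raw totals and 2328 CPM with DESeq2 size factors. The causes were not tested.

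The numbers of the mice did not pair them across groups: the mean correlation of deviations was -0.0156 over 83 same-numbered pairs and 0.00564 over 234 others. With a replicate block the count of members called was 5, 4, 5 and 4 in the CCl4 arms, 3 and 2 for CCl4 + 4MU and CCl4 + siHAS2-LNP against CCl4, and 5 for the average CCl4 effect, as without the block. The CCl4 group of 2 mice limits all comparisons with it.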

Other observations

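Cyp3a25 was set beside 6 other genes across the 14 CCl4 livers. Pearson's r of log2(CPM + 0.5) was 0.97 with Cyp2e1 (Spearman's rho 0.90), 0.88 with Nr1i3, 0.81 with Nr1i2, 0.66 with Hnf4a, 0.58 with Por and -0.28 with Glul, and Cyp3a59 was at 0.89 with Cyp2e1 and 0.88 with Nr1i3. Cyp3a44 was at -0.61 with Nr1i3 and -0.60 with Nr1i2 in the same livers. In the 13 livers without CCl4, Cyp3a25 was at -0.31 with Cyp2e1, -0.26 with Nr1i3, 0.36 with Nr1i2, 0.44 with Hnf4a, 0.42 with Por and -0.67 with Glul. The pairs were chosen after other values had been seen, the mice come from 4 groups in each set, and the libraries share their scaling, so these are descriptions without a test.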
